A study of Rattus norvegicus with 7 samples.

Results

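The integrated stress response and serine metabolism genes examined here are a set of 33 named genes, taken from the deposited table by gene symbol in all 7 libraries. Of these, 32 have a row among the 32852 genes of the table, no row carries the symbol Cth (cystathionine gamma-lyase), and all 32 passed the filter on low values (a mean normalised count of at least 10), as 18225 genes did. The libraries come from wild-type rat oligodendrocyte progenitor cells, the precursors of myelinating cells, isolated from brain at postnatal day 7 and plated at about 40000 cells per well. The 4 control libraries received a control siRNA and the 3 siRNLTR12-int libraries an siRNA directed at RNLTR12-int, a rat endogenous retrovirus. All were lipofected and then held in differentiating medium for 4 to 5 days. The labels call the libraries biological replicates and name no animal, culture or day, so p-values speak only for the spread among these libraries, some of which may be technical. They are called control 1 to control 4 and siRNLTR12-int 1 to siRNLTR12-int 3 by their replicate numbers. The level of RNLTR12-int was not analysed here, and only the labels say which libraries carry the knockdown.

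As background, the integrated stress response starts with kinases that sense unfolded protein, lack of amino acids, double-stranded RNA or lack of heme and phosphorylate the translation factor eIF2. General translation then slows, while the mRNA of the transcription factor ATF4 is translated better. ATF4 pairs with C/EBP proteins and switches on genes for amino acid uptake, amino acid synthesis and the making of serine, glycine and folate-bound carbon units. Myelinating cells are known to be sensitive to defects of eIF2 control, as leukodystrophies of this pathway show.

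Recovered reads numbered 22523873 to 61803693 per library. Transcripts of the oligodendrocyte lineage were present throughout, as the label says. All 15 lineage markers were measured, with summed normalised counts of 265395 to 1056695 in controls and 167114 to 273082 after the siRNA, and 10 of the 15 were lower in every siRNLTR12-int library than in every control (median log2 difference -1.60). Astrocyte and microglia transcripts were present too, and no marker of either list was at 0. Summed astrocyte markers (16 of 16 measured) were 732482 in control 1, 679733 in control 2 and 821200 in siRNLTR12-int 1, and no more than 202670 in each of the remaining 4. Summed microglia markers (14 of 15 measured) were 23960 in control 1 and 25152 in siRNLTR12-int 1, 7821 in control 2 and 2581 to 3418 elsewhere. Control 1, control 2 and siRNLTR12-int 1 are called high in astrocyte markers, and values within each set are given where a result touches them. Fewer cells of a type and less RNA per cell cannot be told apart in these samples.

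After the siRNA against RNLTR12-int the stress-induced hormones Gdf15 and Stc2 and the enzymes Asns, Chac1, Shmt2, Aldh1l2 and Bcat1 were higher in all 3 libraries than in all 4 controls, by 1.12-fold (Bcat1) to 3.71-fold (Gdf15). No member was lower in all 3. These 7 members are 21.9% of the 32, and over all genes tested 4.09% were apart upward in the same way and 3.59% downward. Log2 differences of siRNLTR12-int minus control, on the scale log2(normalised count + 1), were above 0 in 23 of 32 members, against 51% of all genes tested, with a median of 0.25 against 0.006. With limma none of the 32 passed an adjusted p of 0.05 (smallest 0.647), and 0% of the genes tested did. Under an unadjusted p of 0.05, limma had 7 members higher and none lower (all genes 3.33% and 2.98%). The count tool edgeR, run on the recovered reads, also called none (0% of all genes) and had 5 higher and none lower under that p (all genes 3.18% and 3.21%), namely Gdf15, Stc2, Shmt2, Asns and Chac1. DESeq2 on those reads had the same 5 higher and Ddit4 lower under that p. Of the 27902 genes with a DESeq2 p, not filtered on low values, 2.53% were higher and 2.66% lower. These shares are of a wider gene set than those of limma and edgeR. In the authors' deposited table (DESeq2) Gdf15 and Stc2 rose, where 0.384% of genes with an adjusted p rose and 0.368% fell, and DESeq2 on the recovered reads made the same calls (0.752% of genes called).

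**Figure D1:**
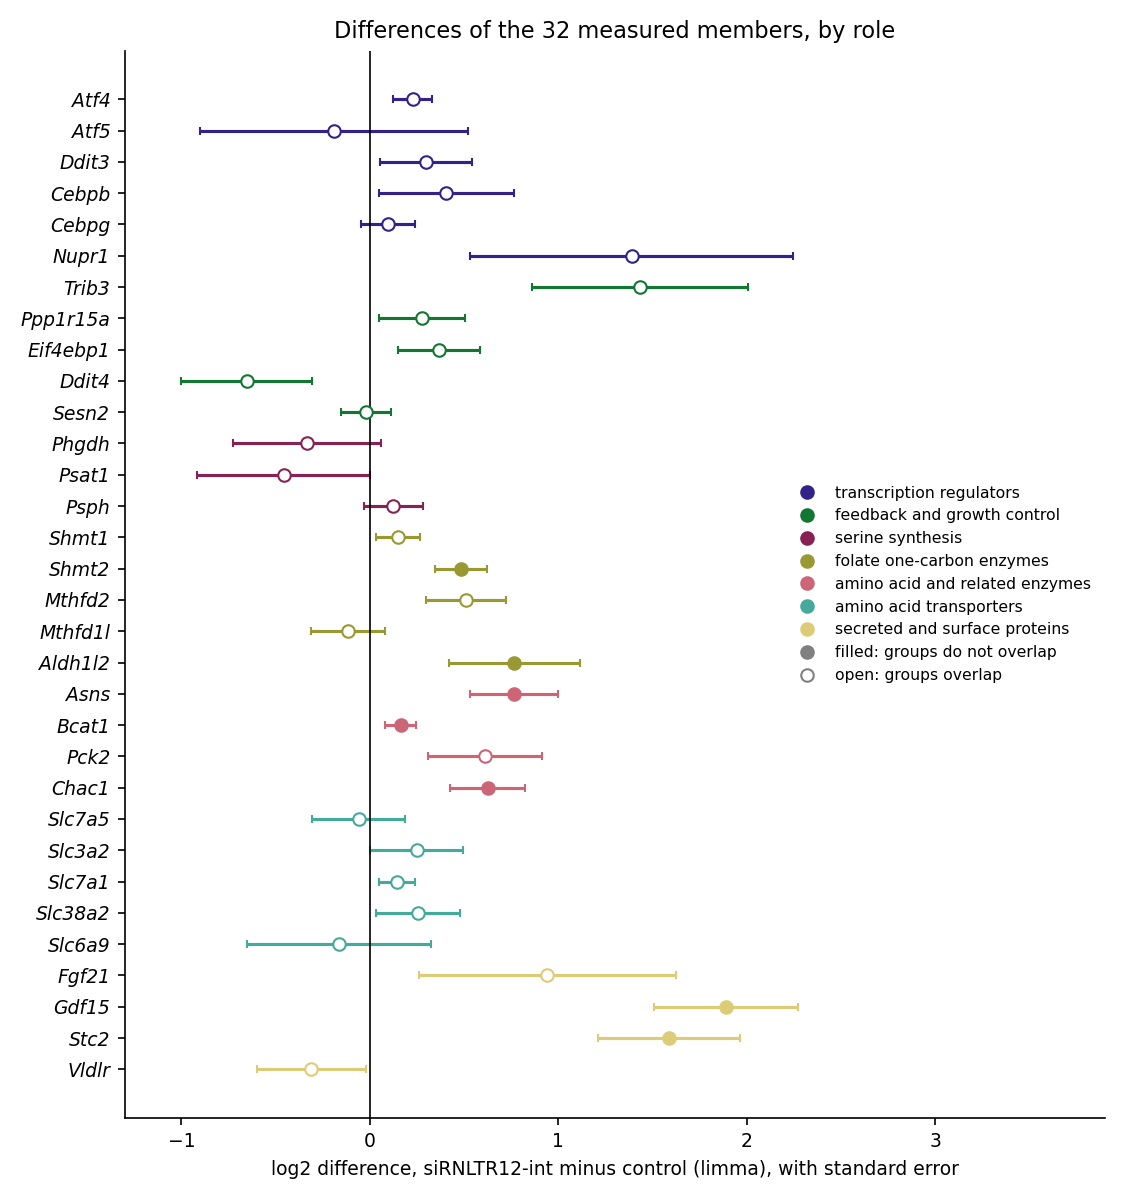
Log2 difference of siRNLTR12-int minus control for each of the 32 measured members on the x axis, with limma's standard error as the bar and colour for the role. The 7 filled points, whose groups do not overlap, all lie above 0, between 0.16 (Bcat1) and 1.89 (Gdf15), while Ddit4 is lowest at -0.65.

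Promoter sequences of the members are shown because ATF4 and its C/EBP partners act through short elements near the start of such genes. RefSeq windows (build GRCr8, a later build than the Rnor_6.0 named for the counts) were found by symbol for 31 of 33 members, in 34 windows. The 250 bases before each start were searched on both strands for TGATGNAA, the core of the C/EBP-ATF response element, which reads TTNCATCA on the other strand. It was present in 6 member windows, 17.6% of them, and in 3.4% of all 33469 windows. Since the members were named for a response that acts through this element, the share describes the list and not these libraries. The endoplasmic reticulum stress element, here CCAAT and then CCACG after 9 other bases, was found in 0 member windows and in 0.0657% of all windows. The 6 stretches of 100 bases with a match are printed here along the gene's strand, with the match in capitals.
Trib3: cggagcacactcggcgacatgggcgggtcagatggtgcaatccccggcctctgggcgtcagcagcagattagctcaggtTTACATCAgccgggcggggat
Chac1: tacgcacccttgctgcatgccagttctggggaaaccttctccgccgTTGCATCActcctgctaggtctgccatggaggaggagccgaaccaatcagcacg
Pck2: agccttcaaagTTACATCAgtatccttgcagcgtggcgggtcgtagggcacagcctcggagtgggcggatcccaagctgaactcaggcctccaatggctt
Nupr1: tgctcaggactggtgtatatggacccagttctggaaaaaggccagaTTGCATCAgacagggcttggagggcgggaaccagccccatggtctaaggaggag
Fgf21: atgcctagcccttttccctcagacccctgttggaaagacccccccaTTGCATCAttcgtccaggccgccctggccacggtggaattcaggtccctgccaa
Slc7a1: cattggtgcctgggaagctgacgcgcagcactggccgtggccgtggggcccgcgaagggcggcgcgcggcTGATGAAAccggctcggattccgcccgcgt
They lie at chr3:161275534-161275633 (Trib3, minus strand), chr3:126795918-126796017 (Chac1, plus strand), chr15:32997603-32997702 (Pck2, plus strand), chr1:190645903-190646002 (Nupr1, minus strand), chr1:105221466-105221565 (Fgf21, minus strand) and chr12:11664388-11664487 (Slc7a1, plus strand). The match begins 21 bases before the start in Trib3, 30 in Slc7a1, 55 in Nupr1, 143 in Fgf21, 167 in Chac1 and 239 in Pck2. All 6 had a log2 difference above 0 (median 0.78), as did 15 of the 24 other measured members with a window (median 0.16). Of the 7 members whose groups did not overlap, only Chac1 held a match. Gdf15, Stc2, Asns, Shmt2 and Bcat1 had windows without one, and Aldh1l2 had no window. Trib3, Nupr1 and Fgf21 rest on few reads, and differences over all genes with a match were not examined. A match describes these letters only and does not show a bound site.

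Among the transcription regulators, Atf4 (ENSRNOG00000017801), the factor that carries the response, was 5783, 4872, 5153 and 5210 normalised counts in controls 1 to 4 and 6772, 6075 and 5625 in siRNLTR12-int 1 to 3. Control 1 lay above siRNLTR12-int 3, so the groups overlapped, and the log2 difference was 0.23 with a standard error of 0.10 (limma adjusted p = 0.819). Since ATF4 is controlled mainly through translation, its mRNA level says little about the protein. Ddit3, which encodes the stress factor CHOP, was 310, 311 and 312 after the siRNA and spread from 184 to 366 in controls. Among the 4 libraries low in astrocyte transcripts Ddit3 was 211 and 184 in the controls and differed by 0.66 on the log2 scale, whereas in the 3 high libraries the difference was -0.06. Nupr1, a small stress-induced nuclear protein, was 100.5 and 149.8 in control 1 and siRNLTR12-int 1 and 10.6 to 43.0 in the other 5 libraries. Cebpb, a C/EBP factor of inflammatory and stress responses, was likewise 1478 and 1855 in those 2 libraries against 708 to 968 elsewhere. They are the libraries with the most microglia transcripts, whose part in these values was not tested. Cebpg, an ATF4 partner, ranged from 1206 to 1686 over all libraries, and Atf5, a relative of ATF4, from 459 to 2493, with all 3 libraries high in astrocyte markers above the other 4 in both genes.

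Feedback and growth control genes went different ways. Trib3 (ENSRNOG00000007319), a pseudokinase that restrains ATF4, was 48.8, 13.8, 12.9 and 8.87 in controls 1 to 4 and 64.9, 41.8 and 38.7 in siRNLTR12-int 1 to 3. Control 1 was within the siRNLTR12-int range and the other 3 controls were below it. The log2 difference was 1.43 with a standard error of 0.57 (limma adjusted p = 0.772), from 5 to 71 reads per library, so counting error weighs on it. Ddit4 (ENSRNOG00000057078), an inhibitor of the growth kinase complex mTORC1, had the most negative difference of the set. It was 1625, 4799, 2917 and 3520 in the controls and 1547, 2006 and 2219 after the siRNA, and again control 1 fell among the siRNLTR12-int values. Its log2 difference was -0.65 with a standard error of 0.35 (limma adjusted p = 0.859). Ppp1r15a, the phosphatase subunit that reverses eIF2 phosphorylation, was 783 to 1270 in controls and 939 to 1575 after the siRNA. Eif4ebp1, a repressor of cap-dependent translation, was 128 to 224 and 204 to 255, and Sesn2, a leucine sensor, 1988 to 2618 and 1997 to 2435. All 3 of these ranges overlapped between the groups.

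**Figure D2:**
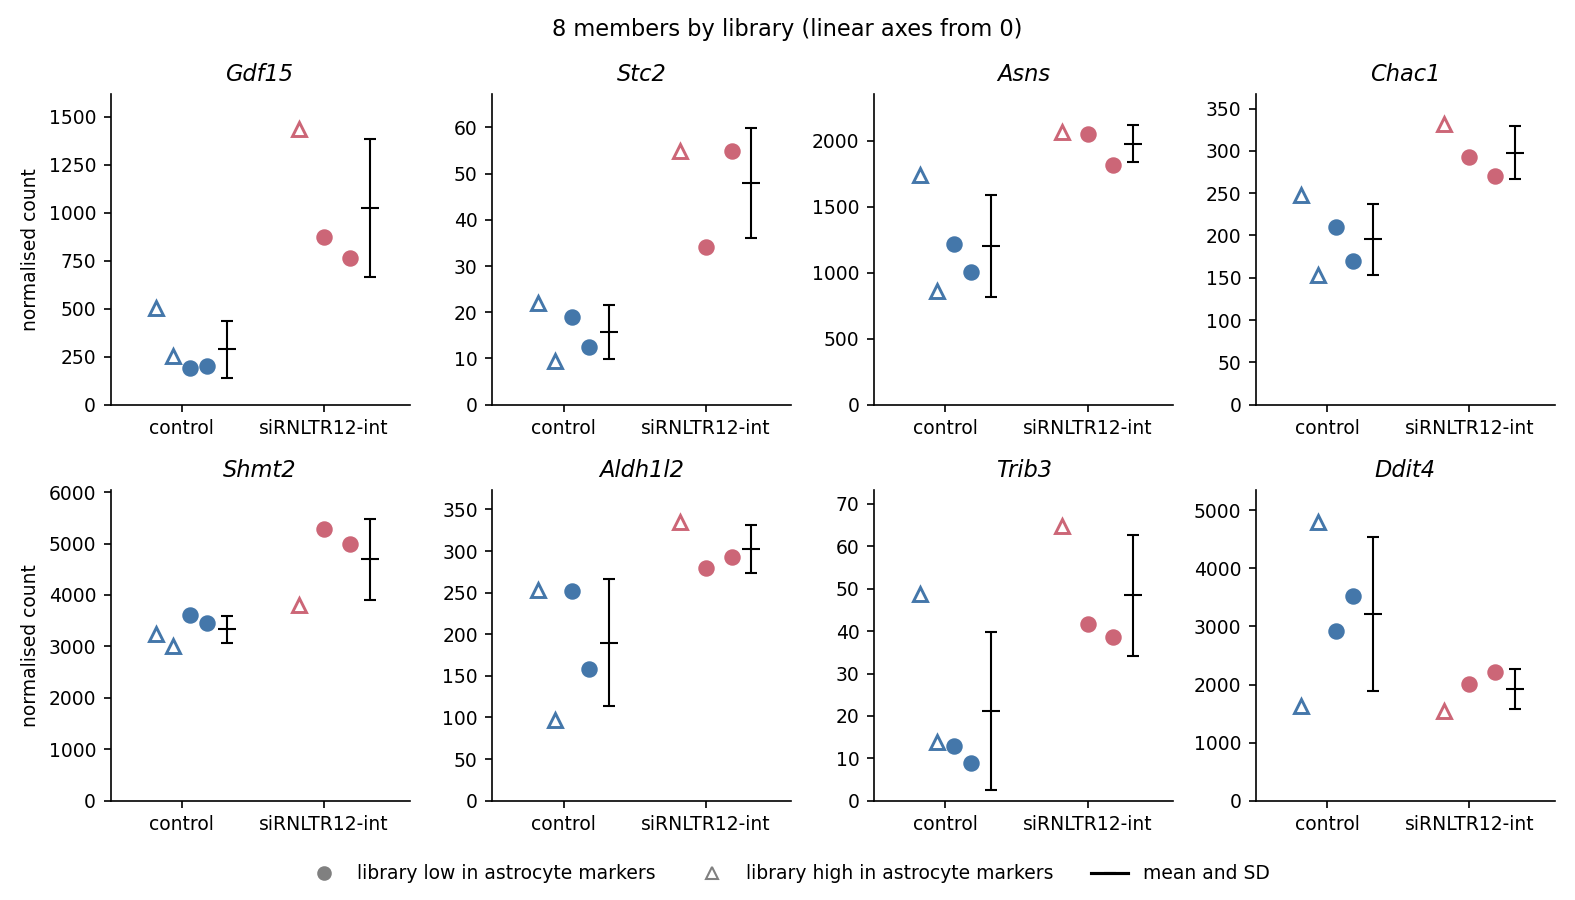
Normalised counts of 8 members (y axes from 0) in the 4 control and 3 siRNLTR12-int libraries; open triangles are the 3 libraries high in astrocyte markers and bars give mean and SD. Gdf15, Stc2, Asns, Chac1, Shmt2 and Aldh1l2 show no overlap between the groups, while in Trib3 and Ddit4 control 1 (48.8 and 1625) lies within the siRNLTR12-int range.

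Of the 3 enzymes that make serine from a glycolytic intermediate, Phgdh and Psat1 had log2 differences below 0 and Psph one above 0. Psat1 (ENSRNOG00000013971), the aminotransferase of the second step, was 8783, 9925, 4139 and 5620 normalised counts in controls 1 to 4 and 9825, 3472 and 3425 in siRNLTR12-int 1 to 3. The high values belong to the 3 libraries high in astrocyte markers, whichever siRNA they received. Phgdh, the dehydrogenase of the first step, followed the same split, with 4489 to 5702 in those 3 libraries and 2204 to 3028 in the other 4. Psph, the phosphatase of the last step, went the other way, with 530 to 713 in the 3 and 738 to 804 in the 4. Between siRNA groups the log2 differences were -0.46 for Psat1 (standard error 0.46), -0.33 for Phgdh and 0.12 for Psph, with limma adjusted p-values of 0.964, 0.978 and 0.980. Within the 4 low libraries Psat1 and Phgdh differed by -0.48 and -0.25, and within the 3 high libraries by 0.07 and -0.04.

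**Figure D3:**
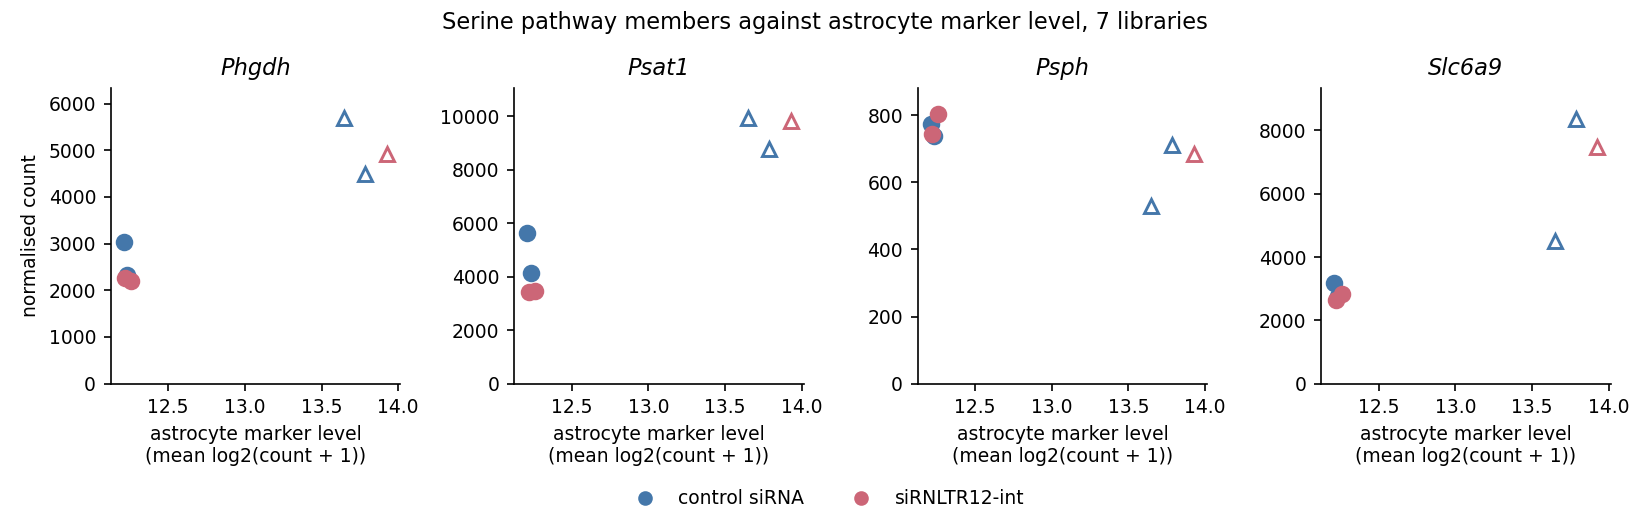
Normalised counts (y axes from 0) of Phgdh, Psat1, Psph and the glycine transporter Slc6a9 against the astrocyte marker level of the library, the mean log2(normalised count + 1) of 16 markers; colour gives the siRNA. The libraries form 2 clusters, near 12.2 and near 13.6 to 13.9, and Phgdh, Psat1 and Slc6a9 are higher in the second, where each siRNA group has libraries.

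Across the set, 6 members (Atf5, Cebpg, Phgdh, Psat1, Slc3a2 and Slc6a9) were higher in all 3 libraries high in astrocyte markers than in the other 4. That share, 18.8%, is near that of all genes tested (18.6%). Psph and Shmt1 were lower in all 3, where 17.1% of all genes were.

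Of the 4 mitochondrial enzymes that move carbon from serine onto folate and onward, Shmt2, Mthfd2 and Aldh1l2 had log2 differences above 0 and Mthfd1l one below 0, and none passed limma. Shmt2 (ENSRNOG00000008106), which splits serine to glycine in mitochondria, was 3241, 3000, 3615 and 3459 normalised counts in controls 1 to 4 and 3800, 5284 and 4992 in siRNLTR12-int 1 to 3. The groups did not overlap, and the difference was 0.48 with a standard error of 0.14 (limma adjusted p = 0.662). Mthfd2 (ENSRNOG00000010833), the next enzyme in mitochondria, was 532, 297, 370 and 316 in controls and 550, 505 and 521 after the siRNA. Only control 1 reached into the siRNLTR12-int range (log2 difference 0.51, standard error 0.21, limma adjusted p = 0.784). Aldh1l2 (ENSRNOG00000008586), which oxidises formyl folate in mitochondria, was 253, 96.5, 253 and 158 in controls and 334, 280 and 293 after the siRNA. Its lowest control was control 2, and its log2 difference was 0.77 with a standard error of 0.35 (limma adjusted p = 0.818). Mthfd1l, the mitochondrial enzyme that releases formate, was 714 to 963 in controls and 562 to 924 after the siRNA. Cytosolic Shmt1 stayed within 472 to 616 in all libraries, with groups that overlapped.

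All 4 measured amino acid enzymes outside that route had log2 differences above 0, as 51% of all genes did, and none passed limma. Asns (ENSRNOG00000007546), which makes asparagine and is a standard readout of ATF4 activity, was 1740, 858, 1216 and 1006 normalised counts in controls 1 to 4 and 2068, 2049 and 1817 in siRNLTR12-int 1 to 3. Control 1 came close to the lowest siRNLTR12-int library, and the log2 difference was 0.76 with a standard error of 0.23 (limma adjusted p = 0.691). Chac1 (ENSRNOG00000014387), which degrades glutathione and is induced by ATF4, was 248, 154, 210 and 170 in controls and 332, 292 and 270 after the siRNA. The gap between its groups was small, and its log2 difference was 0.62 with a standard error of 0.20 (limma adjusted p = 0.701). Bcat1 (ENSRNOG00000015514), a transaminase of branched-chain amino acids, was 4747, 4410, 4767 and 4790 in controls and 5082, 5491 and 5152 after the siRNA, a difference of 0.16 with a standard error of 0.08 (limma adjusted p = 0.841). Pck2, which makes phosphoenolpyruvate in mitochondria, was 157 to 383 in controls and 344 to 452 after the siRNA, with control 1 inside the siRNLTR12-int range. Asns differed by 0.80 within the 4 libraries low in astrocyte markers and by 0.76 within the other 3, Chac1 by 0.57 and 0.76, and Pck2 by 0.47 and 0.88.

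Amino acid transporters showed little separation. Slc3a2 (ENSRNOG00000018487), the heavy chain shared by several transporters, was 11018, 12367, 7017 and 6853 normalised counts in controls 1 to 4 and 12801, 10125 and 9414 in siRNLTR12-int 1 to 3. Its groups overlapped over most of their range (log2 difference 0.25, standard error 0.25, limma adjusted p = 0.964), while in the 4 libraries low in astrocyte markers both siRNLTR12-int values were above both controls. Slc7a5, the light chain that carries large neutral amino acids with it, was 5688 to 11343 in controls and 6445 to 7588 after the siRNA. Its log2 difference was 0.31 within the 4 libraries low in astrocyte markers and -0.48 within the 3 high ones. Slc38a2, a sodium-coupled transporter induced when amino acids are lacking, was 5603 to 10790 and 8429 to 11089. Slc7a1, a carrier of arginine and lysine, was 2940 to 3560 and 3508 to 3722, with control 4 alone above the lowest siRNLTR12-int library. Slc6a9, the glycine transporter of glia, was 4506 to 8377 in the 3 libraries high in astrocyte markers and 2633 to 3191 in the other 4.

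Secreted products of the response carried the 2 largest differences of the set. Gdf15 (ENSRNOG00000019661), a stress cytokine, was 505, 255, 190 and 202 normalised counts in controls 1 to 4 and 1436, 876 and 762 in siRNLTR12-int 1 to 3. Every siRNLTR12-int library was above every control, with the highest value of each group in control 1 and siRNLTR12-int 1. Means were 288 ± 148 (SD, n = 4) and 1025 ± 361 (SD, n = 3), and the log2 difference was 1.89 with a standard error of 0.38 (limma adjusted p = 0.647). In the 4 libraries low in astrocyte markers it was 2.05, and in the other 3, with siRNLTR12-int 1 as the single treated library, it was 1.998. Gdf15 rose by a log2 fold change of 1.83 by DESeq2 in the authors' deposited table, with an adjusted p of 0.0074. With DESeq2 on the recovered reads that call was lost without control 4 (adjusted p = 0.0730), siRNLTR12-int 2 (0.122) or siRNLTR12-int 3 (0.0691), at log2 changes of 1.70, 1.93 and 2.01.

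Stc2 (ENSRNOG00000020729), a secreted glycoprotein induced by ATF4, was 22.0, 9.43, 19.0 and 12.4 normalised counts in controls 1 to 4 and 54.8, 34.2 and 54.8 in siRNLTR12-int 1 to 3. The lowest treated library was above the highest control, although these values rest on only 7 to 68 reads per library. The log2 difference was 1.59 with a standard error of 0.38 (limma adjusted p = 0.647), 1.44 where astrocyte markers were low (4 libraries) and 1.85 in the other 3. Stc2 rose by a log2 fold change of 1.61 by DESeq2 in the authors' deposited table, with an adjusted p of 0.0333. Among the DESeq2 fits that left out 1 library, that call held only without control 1 (adjusted p = 0.0124) and was lost without controls 2, 3 or 4 (0.151, 0.0814 and 0.165) or siRNLTR12-int 1, 2 or 3 (0.119, 0.174 and 0.686).

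Fgf21, a hormone of nutrient stress, rested on 4 to 22 reads per library, with 2.90 to 26.6 normalised counts in controls against 16.1 to 27.8 after the siRNA. Vldlr (ENSRNOG00000027491), a lipoprotein receptor that ATF4 can induce, was 2277, 4600, 3479 and 4008 in controls 1 to 4 and 1961, 3431 and 3275 in siRNLTR12-int 1 to 3. Its lower values were in control 1 and siRNLTR12-int 1, and the groups overlapped (log2 difference -0.31, standard error 0.29, limma adjusted p = 0.954).

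By the count of members above the mean of the controls, control 1 was nearer the treated libraries than the other controls were. Relative to that mean, 24 of the 32 members were higher in control 1, against 10, 16 and 10 in controls 2 to 4 and 27, 25 and 22 in siRNLTR12-int 1 to 3. The same count over all genes was not examined. Some members high in control 1 were not high in siRNLTR12-int 2 and 3. Psat1 was 8783 in control 1 against 3472 and 3425 there, and Slc6a9 8377 against 2832 and 2633. The median deviation of the members was 0.29 in control 1, above siRNLTR12-int 2 and 3 (0.23 and 0.16) and below siRNLTR12-int 1 (0.53). Control 1 and siRNLTR12-int 1 also hold the most microglia transcripts and the most vascular ones (summed normalised counts of 11 measured markers 5735 and 4961, against 1847 to 3255 elsewhere, 1 marker at 0 in all), whose part in the member values was not tested. Control 1 was singled out after these values were seen, and leaving out the control most like the treated libraries makes separation likelier. With any 1 of the other libraries left out, 7 to 10 members were apart, all of them higher except 2 lower without siRNLTR12-int 1. The share of all genes apart in those fits was not set beside them, so these counts describe the members only. Without control 1, 15 members were higher in every treated library than in every control, where 8.01% of all genes were. They were Atf4, Cebpb, Nupr1, Trib3, Ppp1r15a, Eif4ebp1, Mthfd2 and Pck2 in addition to the 7. Ddit4 and Vldlr were lower, where 8.4% of all genes were. DESeq2 on the recovered reads then called Nupr1, Trib3, Mthfd2, Asns, Chac1, Gdf15 and Stc2 higher and Ddit4 lower, and 3.01% of genes tested were called. The number of members called was 1, Gdf15, without control 2 or control 3 (0.656% and 0.681% of genes) and 2, Gdf15 and Shmt2, without siRNLTR12-int 1 (2.85%). It was 0 without control 4, siRNLTR12-int 2 or siRNLTR12-int 3 (0.262%, 0.0509% and 0.0701%).

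**Figure D4:**
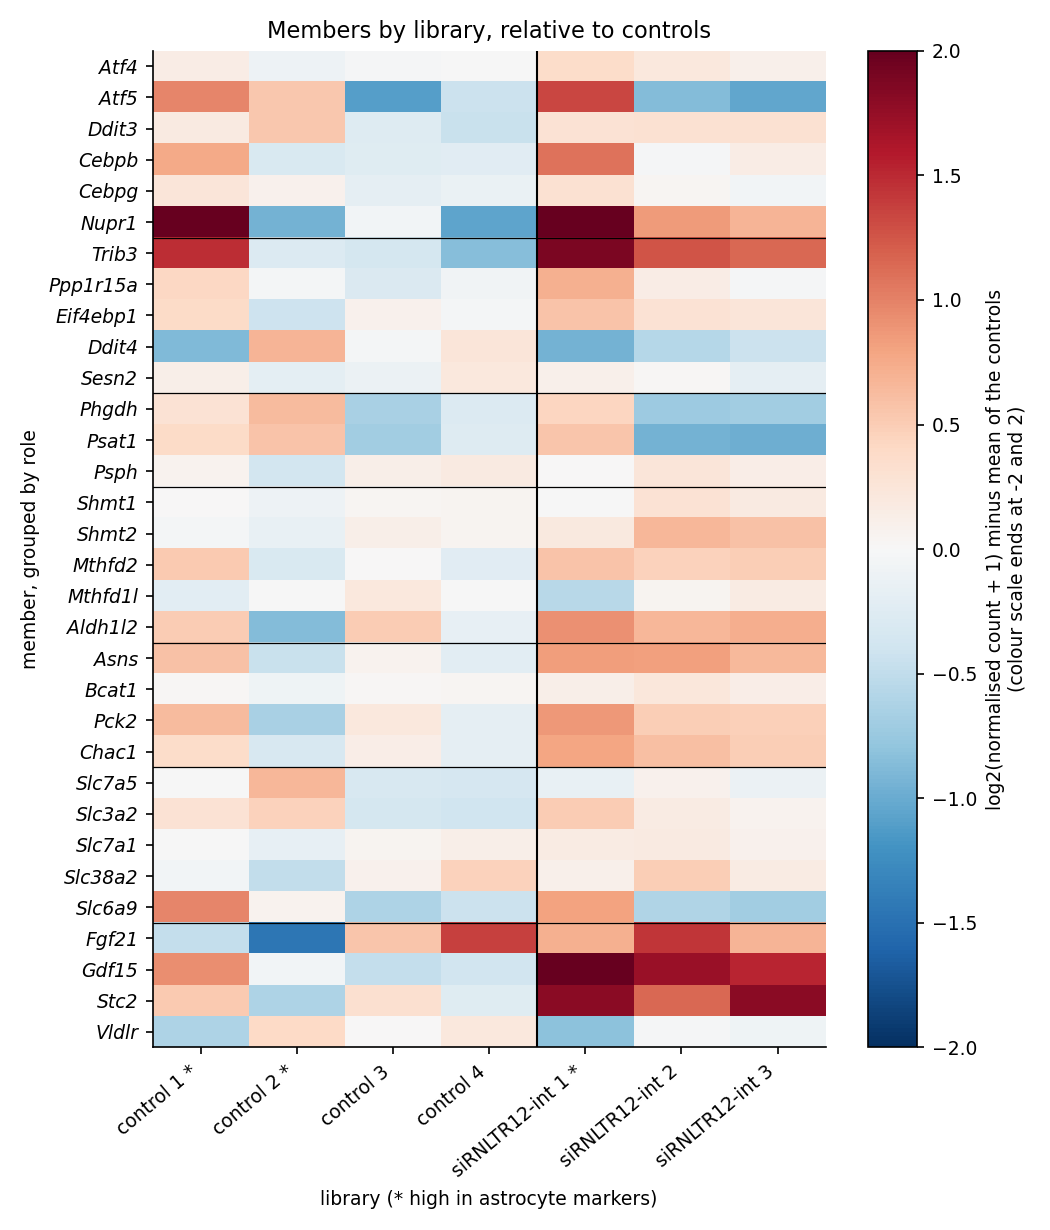
Colour gives log2(normalised count + 1) minus the mean of the 4 controls for each of the 32 members (y axis, lines between roles) in each library (x axis, an asterisk marks libraries high in astrocyte markers); the scale ends at -2 and 2. Control 1 is red in 24 of the 32 members, as are the siRNLTR12-int libraries in 22 to 27, while Atf5, Phgdh, Psat1 and Slc6a9 follow the asterisks.

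Among the 4 libraries low in astrocyte transcripts, 2 of each siRNA, 20 of the 32 members had both siRNLTR12-int values above both controls and 4 had both below. Over all genes 31.3% and 25.3% did so. Limma on these 4 libraries called 8 members, 25% of the set, against 7.88% of the 17947 genes tested there. Gdf15 (log2 2.05, limma adjusted p = 0.00466), Trib3 (1.81, 0.0414), Asns (0.80, 0.0136), Ddit3 (0.66, 0.0409), Mthfd2 (0.59, 0.0401), Shmt2 (0.54, 0.0115) and Slc3a2 (0.49, 0.0143) rose and Ddit4 (-0.60, 0.0248) fell. With 2 libraries a group, the spread behind these calls is poorly known. These 2 pairs were also far more alike than any other pair within a group. The mean chi-square per gene between their reads grows when libraries differ more and also when they hold more reads. For controls 3 and 4 it was 16.4, and control 4 held the fewest reads of all libraries (22523873). For siRNLTR12-int 2 and 3 it was 4.55, against 117 to 235 for the other pairs. The labels do not say whether such a pair shares a culture, so these calls may rest on spread within cultures. Weighting libraries in limma by their own spread called 6 members (Gdf15, Stc2, Asns, Shmt2, Trib3 and Mthfd2) against 4.6% of all genes. DESeq2 with the astrocyte marker level as a covariate called Gdf15, Stc2, Asns and Shmt2, against 5.15%, whereas limma with that covariate called 0 members and 0% of all genes (adjusted p = 0.154 for Gdf15, 0.170 for Stc2). Counting both sets of libraries, 22 members (68.8%) had a difference above 0 in the 4 low and also in the 3 high libraries, and 4 had one below 0 in both, against 30.8% and 27.7% of all genes.

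Other genes of the pathway, from 4 lists of 89 genes with 87 measured, were also examined. None passed with limma or edgeR, while under an unadjusted p of 0.05 limma had 7 higher (3.33% of all genes) and edgeR 9 (3.18%), and both had Slc7a3 and Gcsh lower (2.98% and 3.21% of all genes; Gcsh, of the glycine cleavage system, was named after its values were seen). Their median log2 difference was 0.12, with 62 of 87 above 0. The kinases, exchange factor and phosphatase that set eIF2 phosphorylation (14 of 14 measured) had a median of 0.07 and none under an unadjusted p of 0.05. The smallest p-values there were those of Eif2s2 and Eif2b3, parts of eIF2 and of its exchange factor, and Ppp1r15b, the constitutive eIF2 phosphatase subunit, at log2 differences of 0.15, 0.20 and -0.21 (limma adjusted p = 0.895, 0.913 and 0.935). Cytosolic aminoacyl-tRNA synthetases, which load amino acids onto tRNA and are common ATF4 targets, were above 0 in 16 of 20 members with a median of 0.13. In 4 of them, Eprs, Wars, Nars and Mars (Mars chosen after its values were seen), the groups did not overlap, as in the 4.09% of all genes that were apart upward. Eprs was 9119, 8548, 8140 and 8116 normalised counts in controls and 10030, 10292 and 10318 after the siRNA (log2 difference 0.27, limma adjusted p = 0.701). Wars and Nars differed by 0.24 and 0.23 (limma adjusted p = 0.703 and 0.794).

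Of the further serine, glycine and folate genes (24 of 25 measured, median 0.09), Sfxn3, a sideroflexin of the family that carries serine into mitochondria, was 2606, 2133, 2786 and 2505 normalised counts in controls and 3166, 4198 and 3653 after the siRNA. Like Shmt2 it was above every control in each treated library (log2 difference 0.55, limma adjusted p = 0.652). Slc25a32, the mitochondrial folate carrier, and Fpgs, which adds glutamates to folate, differed by 0.44 and 0.69 (limma adjusted p = 0.712 and 0.693). The list of other ATF4-linked genes (29 of 30 measured) had a median of 0.12, with 22 above 0. In it Slc7a3, a carrier of arginine and lysine, was 2322, 3834, 2069 and 2281 in controls and 1266, 1215 and 1148 after the siRNA, with no overlap. It fell with DESeq2 (log2 fold change -1.12, adjusted p = 0.0074, the authors' deposited table). Slc38a7, a lysosomal glutamine transporter, and Xbp1, a factor of the unfolded protein response, differed by 0.27 and 0.47 (limma adjusted p = 0.703 and 0.796).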

How the data were processed

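RNA was sequenced from 4 control siRNA and 3 siRNLTR12-int libraries (RNA integrity 9 to 10, ribosomal RNA removed, directional paired-end kit, per the labels' protocols). Salmon, DESeq2 and the build Rnor_6.0 are named, without versions, in the submitters' processing notes. The authors deposited a signal per gene and library, gene counts divided by 1 size factor per library. Their second table gives, per the file headers, the mean signal, the log2 fold change and its standard error, a test score, a raw p-value and an adjusted one. Within each library 100% of the deposited nonzero signal values were whole multiples of a single step (tolerance 0.01), so reads could be recovered. The sources used here do not say how reads shared by similar genes were divided.

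The main test was limma 3.58.1 on log2(normalised count + 1) (mean-variance trend, two-sided, Benjamini-Hochberg adjustment) in 18225 genes with a mean of at least 10, checked on simulated data. On recovered reads edgeR 4.0.16 called 0 genes and DESeq2 1.42.0 called 141, by the adjusted p. The members and lists were chosen with earlier results of these data known. Members were given in every library with the test if their groups did not overlap, an unadjusted limma p was under 0.05, the authors' table called them, or their mean was the highest of their role; of each other list, up to 3 genes with the smallest p were named. Values of other members singled out by library were chosen after they were seen. Alternatives were other pseudocounts, filters, scalings, weights, a replicate block, an astrocyte covariate, left-out libraries and other tests.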

Additional observations from a re-analysis of the deposited data

Results flagged for a closer look

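Among 44 genes named, the 4 controls held a library far from the other 3 on the log2 scale in 3 cases; chance gives this in about 1 group of 20. Cebpb was 1478 normalised counts in control replicate 1, with 708 to 745 in controls 2 to 4. Bcat1 was 4410 in control replicate 2, against 4747 to 4790. Fpgs was 621 in control replicate 3, against 433 to 443.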

How the results depend on the processing

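The 14 members given with the test kept the sign of their difference under all 19 alternatives run, except that no value was to be had for Trib3 and Stc2 with a minimum mean of 50, and 26 of the 32 did so; Atf5, Cebpg, Sesn2, Mthfd1l, Slc7a5 and Slc6a9 changed sign under some. The median of the members stayed between 0.17 and 0.31. The count of members past an adjusted p of 0.05, 0 with limma, was 6 with array weights, 2 with DESeq2 and 8 in the fit of 4 libraries with low astrocyte markers. That of the other pathway genes was 8, 1 and 11, where 4.6%, 0.752% and 7.88% of all genes were called. Members whose groups do not overlap numbered 7, all higher, where 4.09% of all genes were apart upward and 3.59% downward. In those 4 libraries such members numbered 24 (20 higher and 4 lower), beside 31.3% and 25.3% of all genes. With 1 library left out the count was 7 to 17. The highest was without control replicate 1 (15 higher and 2 lower), beside 8.01% and 8.4% of all genes, and for the other left-out libraries that share was not examined. Members called by DESeq2, 2 in the authors' table, numbered 0 to 8 with 1 library left out (alternatives chosen after seeing the data) and 4 with the astrocyte level as a covariate. Same-numbered libraries were not shown to be paired (correlation of deviations 0.75, -0.19 and 0.63 for replicates 1 to 3). With the replicate block, in which control replicate 4 carries no information, limma called 0 members, the median was 0.20 and no call changed. Low read numbers limit Fgf21, Stc2, Trib3 and Nupr1, where 4 to 164 reads per library were recovered.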
